A study of Mus musculus with 6 samples.

Results

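The genes described here are 10 mouse germline genes that somatic lineages normally keep silent by promoter methylation: *Sohlh2*, *Dazl*, *Ddx4*, *Mael*, *Sycp3*, *Stk31*, *Taf7l*, *Slc25a31*, *Hormad1* and *Tex101*. They are 10 of the 35565 gene identifiers in the count table, found by symbol, and they were chosen because of their levels in the comparison reported below, so their own differences between the groups are given as a description and carry no test. DNA methylation was not measured in these libraries.

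The libraries are bulk RNA-seq of gastruloids, aggregates of mouse embryonic stem cells that lay out a body axis in culture, collected on day 5 after a pulse of the WNT agonist CHIR99021, which both groups received. Control (NT) gastruloids, grown from cells that carry a non-targeting construct and are labelled wild type, gave 3 libraries. The same number came from *T-UCstem1* KD-1 gastruloids, whose cells have a knockdown of the long noncoding RNA *T-UCstem1*. All of the cells derive from the TBV2 129/SvP embryonic stem cell line, and KD-1 is a single clone, so the clone and the knockdown cannot be told apart. The level of the targeted transcript was not examined. The comparison addresses what the knockdown changes in the expression programme of the day 5 aggregate. Nothing in the labels says that the libraries of a group came from separate batches of aggregates, so the spread between them may be technical. In bulk libraries fewer cells that express a gene and less RNA per cell cannot be told apart.

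Germline genes of this kind have CpG-rich promoters that gain DNA methylation as the embryo leaves the naive pluripotent state, and the methylation, kept up by DNMT1 with UHRF1, holds them off in the soma. In embryonic stem cells many of them are also held off by PRC1.6, a Polycomb complex that reaches promoters through the MGA and MAX dimer, which reads the E-box CACGTG, and through E2F6, which reads a core of TCCCGC or its complement GCGGGA. In the germ line itself the same promoters lose their methylation and the genes switch on in primordial germ cells, before meiosis.

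The promoters are shown because their sequence was not read to choose the genes. Silencing by promoter methylation was part of the choice, so CpG content and motifs may not be independent of it. The RefSeq windows, from 250 bases before to 50 bases after each transcription start on build GRCm38.p6, were found for 10 of 10 genes, and the reference strain is not the 129/SvP strain of the cells. The bases before the start are printed for 4 promoters with the E-box and for that of *Dazl*, which has none, 5′ to 3′ on the strand of the gene, with each CACGTG in capitals.
Sycp3, chr10:88459337-88459586, plus strand: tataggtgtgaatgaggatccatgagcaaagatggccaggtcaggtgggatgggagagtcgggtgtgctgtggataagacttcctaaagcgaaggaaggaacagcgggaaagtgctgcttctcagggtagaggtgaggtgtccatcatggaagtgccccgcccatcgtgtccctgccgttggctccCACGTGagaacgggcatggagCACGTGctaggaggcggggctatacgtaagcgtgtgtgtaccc
Hormad1, chr3:95559427-95559676, plus strand: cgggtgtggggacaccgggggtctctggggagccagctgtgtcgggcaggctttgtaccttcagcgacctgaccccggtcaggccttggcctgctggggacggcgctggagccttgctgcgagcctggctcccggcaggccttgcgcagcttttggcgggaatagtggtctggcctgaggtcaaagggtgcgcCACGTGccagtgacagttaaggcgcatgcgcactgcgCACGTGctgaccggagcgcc
Ddx4, chr13:112652311-112652560, minus strand: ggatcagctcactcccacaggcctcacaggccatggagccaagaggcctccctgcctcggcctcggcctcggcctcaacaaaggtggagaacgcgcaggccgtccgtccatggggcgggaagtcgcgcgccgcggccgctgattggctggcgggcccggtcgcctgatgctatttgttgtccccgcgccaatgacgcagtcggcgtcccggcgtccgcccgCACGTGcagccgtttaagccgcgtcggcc
Taf7l, chrX:134476491-134476740, minus strand: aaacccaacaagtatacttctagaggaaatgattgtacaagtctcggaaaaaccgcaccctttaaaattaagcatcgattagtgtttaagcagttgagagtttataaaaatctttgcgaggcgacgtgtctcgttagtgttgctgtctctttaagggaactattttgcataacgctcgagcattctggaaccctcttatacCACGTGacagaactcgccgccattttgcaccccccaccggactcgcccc
Dazl, chr17:50293621-50293870, minus strand: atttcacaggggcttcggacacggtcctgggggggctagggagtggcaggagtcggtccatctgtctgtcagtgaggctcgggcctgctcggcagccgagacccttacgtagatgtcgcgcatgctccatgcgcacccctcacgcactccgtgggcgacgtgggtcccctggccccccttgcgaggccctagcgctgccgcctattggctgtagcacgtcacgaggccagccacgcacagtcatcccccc

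The letters CACGTG, which read the same on both strands, stood in the window of 7 of the 10 genes (70.0%), against 7.15% of all 32851 windows, 8.09% of the 27025 genes with a window and 11.4% of the 10970 genes that both had a window and were tested for expression. *Sycp3* and *Hormad1* held 2 each. In *Sycp3* they began 64 and 43 bases before the start, and in *Hormad1* 57 and 20 bases before it. *Ddx4*, *Taf7l*, *Stk31*, *Slc25a31* and *Mael* held 1, beginning 29, 49, 55, 93 and 223 bases before the start. In *Sohlh2*, *Dazl* and *Tex101* these letters were not in the window. The E2F6 core, searched as TCCCGC and GCGGGA, stood in 5 of the 10 windows against 6562 of all 32851 windows and 39.8% of the genes tested. It stood 95 bases before the start in *Hormad1*, 136 in *Ddx4*, 143 in *Mael* and 147 in *Sycp3*, and after the start in *Slc25a31* and, a second time, in *Mael*. A match to letters is not evidence of binding.

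All 10 windows were richer in CpG than the median of all windows, while some lay below the median of the genes tested. The ratio of observed to expected CpG ran from 0.545 in *Sohlh2* to 1.03 in *Taf7l*, with a median of 0.788, against 0.384 over all windows and 0.753 over the genes tested. *Ddx4* had the most CpGs, 38 in its window of 72.0% G and C, and *Sycp3* the fewest, 15. The genes tested for expression thus came close to the 10 in CpG content and further from them in the share with an E-box. These shares are a description, with no test.

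**Figure D1:**
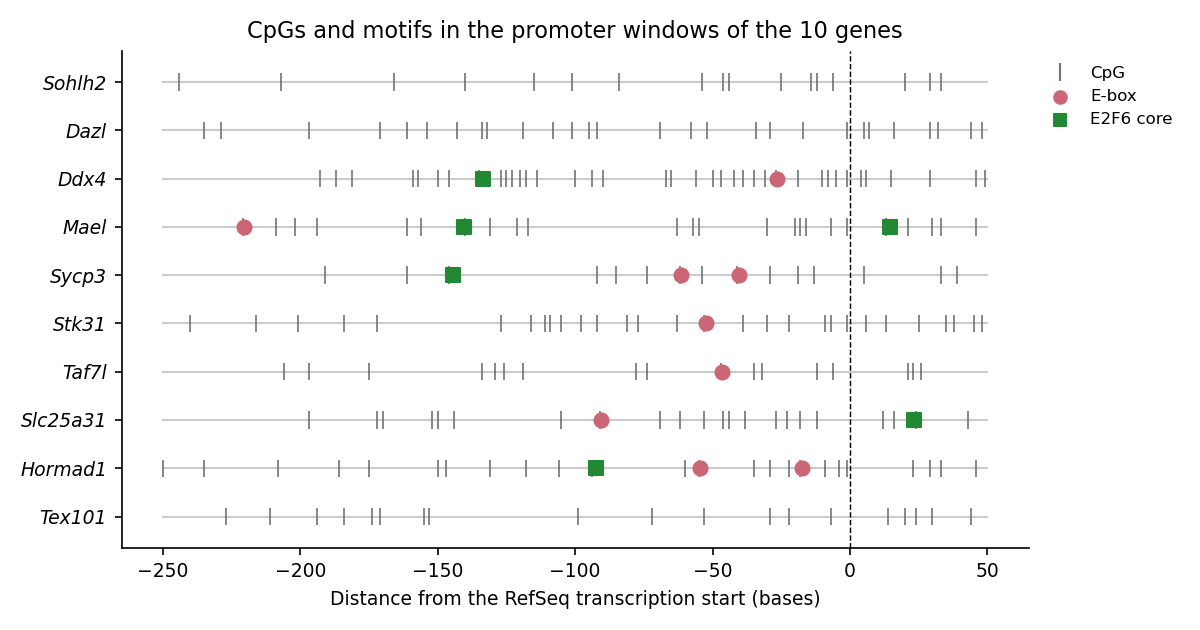
Promoter windows of the 10 genes, drawn by distance in bases from the RefSeq transcription start (dashed line), with 1 row per gene. Grey ticks are CpGs, red circles the E-box and green squares the E2F6 core; 7 of the rows carry a red circle, and in all of these but *Mael* it lies within 100 bases of the start.

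Depth was 20982249, 34694406 and 56674906 estimated counts for the Control libraries and 41180012, 42407550 and 85561026 for those of KD-1. They are called the lowest, middle and highest library of their group by this depth, and values are given in that order. Levels are estimated counts per 1000000 counts of a library (CPM) after TMM scaling, with factors of 0.975 to 1.026. A count of 3, used as the floor below which a level is not read, is worth 0.0541 to 0.145 CPM in the Control libraries and 0.0345 to 0.0716 CPM in those of KD-1. Of the genes that mark a gastruloid, *Meox1* of the somites stood at 354 to 388 CPM in Control and 0.391 to 0.453 in KD-1, *Cdx2* of the posterior axis at 24.4 to 30.3 and 10.6 to 11.9, and the streak factor *T* at 5.21 to 8.64 and 5.03 to 5.84. The endoderm factor *Sox17* was low, at 0.162 to 0.266 CPM in Control and 0 to 0.0115 in KD-1. *Tbx6* stood at 0.531 to 0.858 and 0.207 to 0.286 CPM, and *Sox2* at 99.5 to 136 and 521 to 548 CPM.

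Of the 10 genes, 9 passed the filter on low counts. All 9 were higher in KD-1 than in Control, with no overlap between the 3 libraries of each group, and *Tex101* did not pass. Over all 15110 genes tested, 19.7% were called higher (edgeR quasi-likelihood test, Benjamini-Hochberg adjusted p under 0.05 and a fold change over 1.5), 18.1% were called lower (a fall by more than 1.5-fold) and in 70.6% the groups did not overlap. Since the 10 were chosen on this contrast and 8 of the 9 reached the filter only through their KD-1 libraries, nothing is read from their count. The median log2 fold change of the 9 was 4.59, with a range of 3.49 to 11.05, where the median of all genes tested was -0.01. Summed over the 10 genes, Control held 2.32, 3.29 and 3.32 CPM, and KD-1 88.3, 88.2 and 89.8 CPM. In Control 6, 6 and 8 of the genes had any count. In KD-1 all 10 had one.

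Among the transcription factors, *Sohlh2* (ENSMUSG00000027794, chr3:55089265-55117382 on GRCm39), a basic helix-loop-helix factor of early spermatogonia and primordial follicles, went from next to nothing to the highest level of the group. Its counts were 0, 0 and 1 in Control and 1093, 1032 and 2165 in KD-1, where it stood at 26.1, 23.7 and 24.9 CPM (24.9 ± 1.17, SD, n = 3). The 1 count in Control makes the size of the difference uncertain: the ratio of the pooled counts, scaled by depth, was 2740, with a 95% counting interval of 491 to 108000.

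*Taf7l* (ENSMUSG00000009596, chrX:133360861-133377290), a germ cell form of a TFIID subunit, stood at 0, 0.385 and 0.126 CPM in Control and 2.29, 2.28 and 1.87 CPM in KD-1. The Control library without a count was the shallowest, in which the floor is 0.145 CPM, so its difference from the highest library was not detectable at this depth, while its 95% counting interval, 0 to 0.178 CPM, does not meet that of the middle library, 0.205 to 0.658. The log2 fold change was 3.53 (SE 0.56), and 3.36 above the median of 0.17 for the genes of chromosome X. Without the middle Control library it was 4.52.

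The 2 RNA-binding proteins of the group differed in what Control retained. *Dazl* (ENSMUSG00000010592, chr17:50586366-50600664), which controls the translation of germ cell mRNAs, had 2, 0 and 0 counts in Control and 293, 369 and 764 in KD-1, or 6.99, 8.48 and 8.8 CPM (8.09 ± 0.966, SD, n = 3). Its pooled ratio was 455 (95% counting interval 126 to 3760). Its KD-1 libraries varied by 11.9% (coefficient of variation), the most among the 9 genes, where counting alone gives 4.59%.

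*Ddx4* (ENSMUSG00000021758, chr13:112734867-112789009), the DEAD-box helicase also known as Vasa and the classical marker of germ cells, was detected in every Control library, at 0.627, 0.118 and 0.722 CPM. The middle library was the low one: its 95% counting interval, 0.0323 to 0.303 CPM, does not meet that of the highest library, 0.516 to 0.983. In KD-1 the gene stood at 15.6, 15.4 and 15.4 CPM, a spread of 0.717%, and the log2 fold change was 4.92 (SE 0.32), or 5.59 without the highest Control library.

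Of the genes of the nuage, the granule in which germ cells process piRNAs, *Mael* (ENSMUSG00000040629, chr1:166028770-166066331), needed for transposon silencing, stood at 0, 0.0592 and 0.199 CPM in Control and 2.79, 2.92 and 2.61 CPM in KD-1. Its log2 fold change was 4.59 (SE 0.47), or 6.14 without the highest Control library. Genes of chromosome 1 as a whole were higher in KD-1, with a median log2 fold change of 0.49 over 871 genes, and *Mael* lay 4.1 above that median.

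*Stk31* (ENSMUSG00000023403, chr6:49372473-49446440), a germ cell protein with a Tudor domain and a kinase-like domain, was the member with the most even Control levels. They were 1.16, 1.21 and 1.3 CPM, from 24, 41 and 72 counts, and it would have passed the filter on its Control libraries alone, which holds for no other of the 10. In KD-1 it stood at 13.5, 13.7 and 14.6 CPM, and the log2 fold change, 3.49 (SE 0.12), was the smallest of the 9 and the one with the smallest error.

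The 2 genes of the meiotic chromosome axis were both present at a low level in Control. *Sycp3* (ENSMUSG00000020059, chr10:88295431-88309099), a building block of the lateral element of the synaptonemal complex, stood at 0.289, 0.681 and 0.162 CPM in Control and 5.87, 5.49 and 5.6 CPM in KD-1. The middle Control library, with 23 counts against 6 and 9, was the high one here, and without it the log2 fold change of 3.97 (SE 0.37) became 4.81.

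*Hormad1* (ENSMUSG00000028109, chr3:95466938-95495179), which marks chromosome axes that have not yet paired, had 1, 28 and 42 counts in Control, or 0.0482, 0.829 and 0.758 CPM. The lowest library was under the floor, and its counting interval, 0.00122 to 0.269 CPM, lay below those of the other two, 0.551 to 1.2 and 0.546 to 1.02. In KD-1 the gene stood at 13.3, 14.1 and 14.2 CPM, and the log2 fold change was 4.47 (SE 0.35).

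The 2 genes of the later male germ line had the lowest CPM of the group in KD-1. *Slc25a31* (ENSMUSG00000069041, chr3:40663285-40680527), the ADP/ATP carrier of the mitochondria of male germ cells, had 2, 0 and 0 counts in Control and 77, 88 and 155 in KD-1, or 1.84, 2.02 and 1.78 CPM. Its pooled ratio was 102 (95% counting interval 28 to 847). *Tex101* (ENSMUSG00000062773, chr7:24367432-24376100), a surface protein of testicular germ cells, had 0, 0 and 2 counts in Control and 1, 1 and 1 in KD-1. It was at or under the floor in every library and the groups overlapped, so no difference was detectable at this depth.

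**Figure D2:**
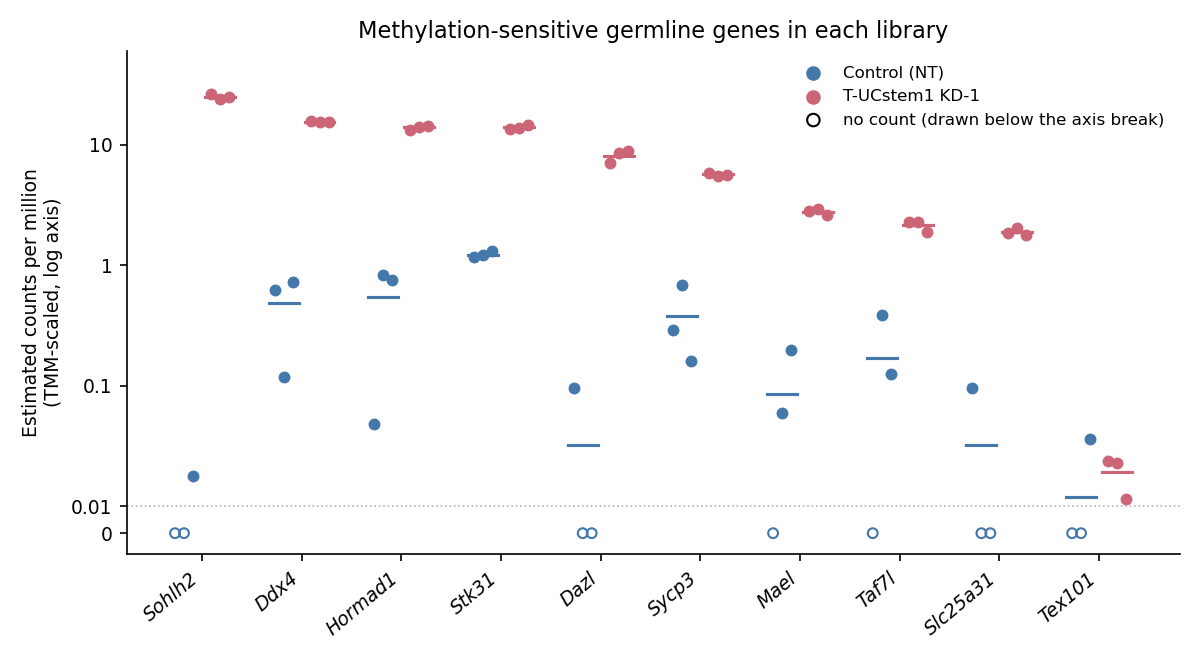
Level of the 10 genes in each of the 6 libraries, in TMM-scaled CPM on a log axis, in order of the KD-1 mean. Blue points are Control (NT), red points *T-UCstem1* KD-1, short lines the mean of 3 libraries (not drawn under 0.01) and open circles libraries without a count; for 9 genes the red points lie above all blue points, and for *Tex101* the groups overlap near the bottom of the axis.

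Levels were compared between genes per kilobase of merged exons. This length covers all annotated exons and can exceed that of the transcript in use, so the order is approximate. The KD-1 levels spanned about an order of magnitude over the 9 genes. *Sohlh2* led at 9.25 ± 0.436 CPM per kb (SD, n = 3). *Ddx4* at 4.21 ± 0.0302 and *Sycp3* at 4.14 ± 0.142 did not differ beyond their spread, nor did *Stk31* at 3.59 ± 0.147 and *Hormad1* at 3.46 ± 0.125. They were followed by *Dazl* at 2.09 ± 0.249 and *Mael* at 1.59 ± 0.0878, and then by *Taf7l* at 0.931 ± 0.105 and *Slc25a31* at 0.884 ± 0.0589, which again did not differ beyond their spread. Among all genes tested the 9 lay between percentiles 30 and 78.2 of level per kb in KD-1, and between percentiles 0.445 and 18.3 in Control. In KD-1 the spread between libraries was above that of counting alone for 5 genes (*Sohlh2*, *Dazl*, *Stk31*, *Taf7l* and *Hormad1*) and below it for 4. A spread from 3 libraries is imprecise, and for *Hormad1* it was 3.6% against 3.53%, so nothing is read from this split. In Control the order was different, with *Stk31* at 0.314 and *Sycp3* at 0.277 CPM per kb ahead of *Hormad1* and *Ddx4*, at 0.136 and 0.133. *Sohlh2*, *Dazl* and *Slc25a31* were under the floor in every Control library and have no place in that order.

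Germline genes outside the 10 were taken from 3 lists with 65 members: the piRNA pathway, meiotic chromosomes, and germ cell regulators with late germline genes. These genes were listed with earlier results of these data known, so their counts are no independent evidence. More of them rose in KD-1 than fell: 51 were tested, of which 30 were called higher (58.8%), 4 lower (7.84%) and 17 neither, with a median log2 fold change of 1.18. Over all genes tested, 19.7% were called higher and 18.1% lower. Among genes averaging under 3 CPM, a level that many of the 51 exceed, 29.0% of 3817 were called higher. Because a low gene can pass the filter through KD-1 alone, the count was also taken over genes that pass it in their Control libraries alone, which removes genes that rose from near 0: 17 of 35 germline genes were called higher (48.6%) and 4 lower (11.4%), against 17.1% and 19.8% of all 13787 such genes. The shares of the 3 lists called higher were 9 of 16, 13 of 22 and 8 of 13. The 3 genes named below from each list as the largest rises were picked by the size of their change, and all 9 passed the filter only through their KD-1 libraries, so their values are given without a p.

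Of the piRNA pathway, the largest changes were those of *Fkbp6*, *Mov10l1* and *Tdrd1*. *Fkbp6*, a cochaperone of piRNA loading, stood at 0, 0.296 and 0 CPM in Control and 7.37, 7.29 and 7.02 CPM in KD-1 (log2 fold change 6.24, SE 0.59). *Mov10l1*, the helicase that begins piRNA processing, stood at 0, 0.266 and 0 CPM in Control and 3.74, 3.65 and 4.4 CPM in KD-1 (5.51, SE 0.66). For both, every Control count came from the middle library, and without it Control was listed at 0. *Tdrd1*, a Tudor scaffold of the nuage, had counts in all Control libraries, at 0.0965, 0.237 and 0.126 CPM, and stood at 3.91, 3.61 and 4.34 CPM in KD-1 (4.65, SE 0.29). *Tdrd7* was the 1 gene of the list called lower, from 16.1, 13.1 and 13.5 CPM to 3.89, 2.87 and 3.29 (-2.08, SE 0.14, edgeR adjusted p = 4.6e-06).

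Of the meiotic chromosome genes, *Syce1* and *Tex12*, of the central element of the synaptonemal complex, had no count in any Control library, and *Sycp1*, its transverse filament, had 3. *Syce1* stood at 7.16, 8.87 and 7.98 CPM in KD-1, at least 83.5-fold higher than a floor of 3 counts per Control library. *Tex12* reached 0.31, 0.529 and 0.472 CPM, at least 4.56-fold higher by the same floor, and *Sycp1* 1.6, 0.942 and 1.46 CPM, a pooled ratio of 50 with a 95% counting interval of 16.9 to 244. The meiotic cohesin *Rec8* was called lower, from 12.2, 16.4 and 13 CPM to 4.51, 4.53 and 4.34 (log2 fold change -1.64, SE 0.13, edgeR adjusted p = 1.1e-05). *Stag3*, another meiotic cohesin subunit, stood at 50.9 ± 2.45 CPM in Control and 52.6 ± 0.697 in KD-1 (SD, n = 3).

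Of the germ cell regulators and late genes, *Rpl10l*, a ribosomal protein gene used in meiotic cells, stood at 0.0965, 0 and 0.0722 CPM in Control and 12.4, 12.1 and 12.7 CPM in KD-1 (log2 fold change 7.76, SE 0.3). *Pdha2*, the testis form of a pyruvate dehydrogenase subunit, had no count in Control and 0.286, 0.253 and 0.276 CPM in KD-1, at least 2.83-fold higher than the floor. *Rpl10l* and *Pdha2* are close copies of a gene used in all tissues, and reads shared with it make their values uncertain. *Dmrtb1*, which acts in spermatogonia, went from 0.434, 0.0888 and 0.271 CPM to 3.48, 3.4 and 3.15 (3.74, SE 0.36). In the other direction, *Stra8*, the gatekeeper of meiosis, fell from 1.5, 3.08 and 1.88 CPM to 0.429, 0.414 and 0.311 (-2.51, SE 0.35, edgeR adjusted p = 0.00028), and *Tuba3a*, a testis tubulin with near-identical relatives, fell from 20 ± 4.11 CPM to 2.81 ± 0.451 (SD, n = 3; log2 fold change -2.86, SE 0.18, edgeR adjusted p = 3e-06). The 4 genes called lower, and *Stag3*, were named after their values were seen.

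**Figure D3:**
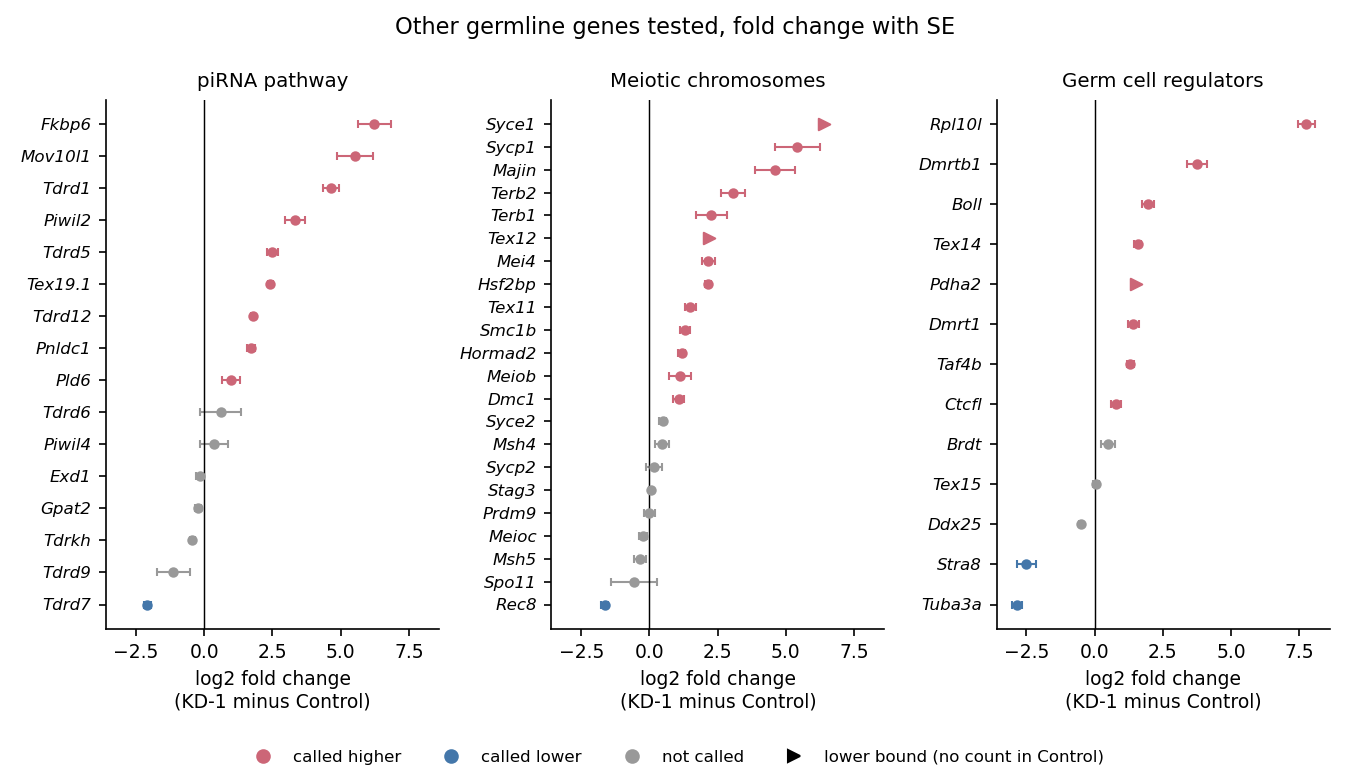
Log2 fold change (KD-1 minus Control) of the 51 germline genes tested outside the 10, in 3 lists, with bars for the SE. Red marks genes called higher, blue lower and grey neither, and triangles are lower bounds for genes without a count in Control; red points fill the upper part of each list, and the 4 blue points are *Tdrd7*, *Rec8*, *Stra8* and *Tuba3a*.

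The E-box was also counted in the germline genes outside the 10. Of the 30 called higher, 21 had a window, and 7 of these held CACGTG (33.3%). Among those tested and not called higher it was 5 of 18 (27.8%), and among those not tested 2 of 13 (15.4%). Over all genes tested, 19.4% of the 1253 with an E-box were called higher, as were 18.3% of the 9717 without, and 14.9% and 18.8% were called lower. The median ratio of observed to expected CpG was 0.674 in the germline genes called higher and 0.64 in those tested and not called higher.

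The genes that set, keep, remove or act with repressive marks moved in both directions. Of 26 genes for DNA methylation and its removal, PRC1.6 and H3K9 methylation, 8 were called higher (30.8%) and 5 lower (19.2%). Over all genes tested the shares were 19.7% and 18.1%. In either direction 13 of the 26 were called, against 37.7% of all genes tested. *Dnmt1*, which copies methylation at replication, stood at 294 ± 28.1 CPM in Control and 250 ± 0.232 in KD-1 (SD, n = 3; log2 fold change -0.23, SE 0.07, edgeR adjusted p = 0.021, and up to 0.086 with a library left out), and its partner *Uhrf1* at 264 ± 14.8 and 217 ± 4.5 (-0.28, SE 0.06, edgeR adjusted p = 0.0028), and neither passed the fold change threshold. Among the genes that set methylation anew, *Dnmt3a* fell from 122, 119 and 120 CPM to 71.1, 73.2 and 71.8 (-0.74, SE 0.05, edgeR adjusted p = 4.3e-06). *Dnmt3b* rose from 46.7, 46 and 51.2 CPM to 89.2, 83.4 and 87.1 (0.85, SE 0.06, edgeR adjusted p = 8.6e-06), and the cofactor *Dnmt3l* fell from 9.21, 10.6 and 8.95 CPM to 3.48, 3.68 and 3.77 (-1.39, SE 0.12, edgeR adjusted p = 1.8e-05). *Tet1*, which oxidises methylated cytosine, rose from 141, 81.9 and 117 CPM to 378, 392 and 410 (1.8, SE 0.17, edgeR adjusted p = 2.7e-05). Of its family *Tet3* fell from 60.8, 54.4 and 62.5 CPM to 32.3, 33.8 and 33.7 (-0.83, SE 0.07, edgeR adjusted p = 1.7e-05), and *Tet2* was not called, at 50.8, 31.2 and 45.5 CPM in Control and 41.4, 44.2 and 43.4 in KD-1. *Hells*, of the DNA methylation list, was also called higher, from 209, 189 and 186 CPM to 337, 354 and 357 (0.85, SE 0.06, edgeR adjusted p = 8.4e-06).

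Of the subunits that read DNA for PRC1.6, *Mga* was called higher, and *Max* and *E2f6* were not called. *Mga* rose from 229, 150 and 212 CPM to 322, 346 and 356 (log2 fold change 0.79, SE 0.14, edgeR adjusted p = 0.0011), and *Pcgf6*, which defines the complex, from 47.5, 42.7 and 45.6 to 80, 76.8 and 76.2 (0.78, SE 0.06, edgeR adjusted p = 1.1e-05). *Max* stood at 52.8 ± 8.52 CPM in Control and 59.4 ± 3.95 in KD-1 (0.16, SE 0.11), *E2f6* at 55.7 ± 2.06 and 43.4 ± 0.692 (-0.36, SE 0.06) and *L3mbtl2* at 53.6 ± 2.21 and 73.5 ± 1.31 (0.45, SE 0.06; SD, n = 3), and none of these was called. Of the 12 PRC1.6 genes 5 were called higher (41.7%) and *Yaf2* alone lower (8.33%), against 19.7% and 18.1% of all genes tested. Those called higher besides *Mga* and *Pcgf6* were *Rybp* (log2 fold change 1.1, SE 0.08), *Rnf2* (1.01, SE 0.05) and *Wdr5* (0.76, SE 0.08). Of the 5 genes for H3K9 methylation, *Ehmt2* was called lower, close to the 1.5-fold threshold (log2 fold change -0.6, SE 0.05). *Setdb1*, the methyltransferase that acts with MGA, MAX and E2F6 at germline promoters, stood at 113 ± 11.1 and 122 ± 3.01 CPM (0.11, SE 0.08). *Tet2*, *Tet3*, *Hells*, *Rybp*, *Rnf2*, *Wdr5*, *Yaf2* and *Ehmt2* were named after their values were seen.

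**Figure D4:**
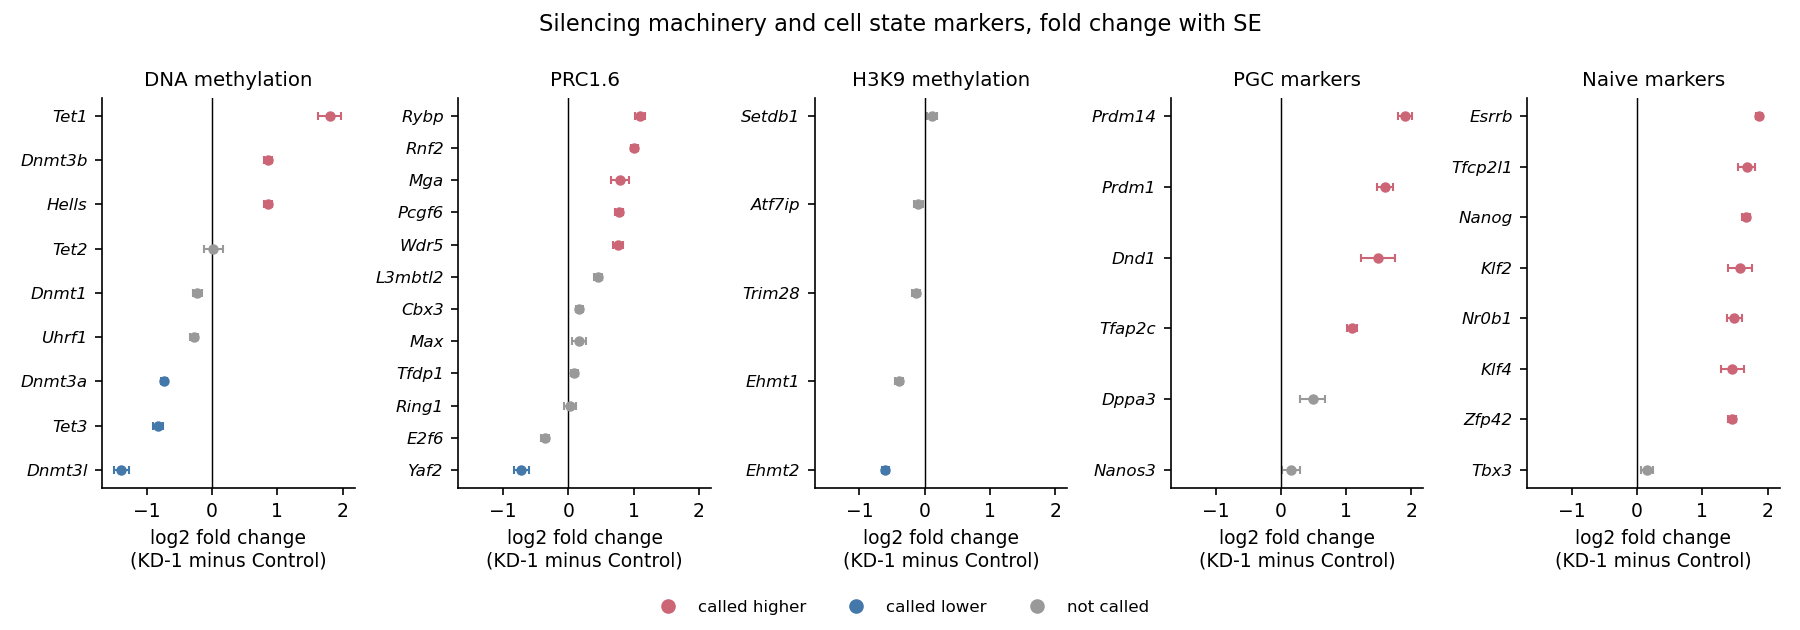
Log2 fold change (KD-1 minus Control) with SE for genes of DNA methylation, PRC1.6 and H3K9 methylation and for markers of primordial germ cells (PGC) and naive pluripotent cells. Red marks genes called higher, blue lower and grey neither; the first 3 panels hold points on both sides of 0, and in the marker panels every point lies to the right of 0, up to 1.9.

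In the marker lists below, summed levels were higher in KD-1 for naive, primordial germ cell and 2-cell-like markers and lower for fibroblast markers. Of 8 markers of naive pluripotency 7 were called higher, against 17.1% of all genes that pass the filter in Control alone, as these 8 do, with log2 fold changes of 0.15 to 1.87 over the list. Several of these markers were already reported as higher from these same libraries, so the count is no independent evidence. *Esrrb* rose from 81.8, 78.3 and 84 CPM to 295, 298 and 300 (1.87, SE 0.05, edgeR adjusted p = 4.7e-08), *Tfcp2l1* by 1.68 (SE 0.13) and *Nanog* by 1.67 (SE 0.06) on the log2 scale. The summed level of the list was 432 to 477 CPM in Control and 1400 to 1440 in KD-1. Relative to that sum, the 10 germline genes stood at 4.85, 7.61 and 7.07 CPM per 1000 CPM of naive markers in Control and 61.6, 62.9 and 62.4 in KD-1. The 10 were chosen for their levels on this contrast, so nothing is read from the rise of this ratio.

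Of 6 markers of primordial germ cells, which all pass the filter in Control, 4 were called higher, against the same 17.1%. *Prdm14* rose by 1.9 (SE 0.11), *Prdm1* by 1.6 (SE 0.12) and *Dnd1* by 1.49 (SE 0.26) on the log2 scale, while *Nanos3*, at 3.33, 3.67 and 4.03 CPM in Control and 4.22, 3.79 and 4.32 in KD-1, overlapped between the groups. *Prdm14* lies on chromosome 1, whose median stood at 0.49. *Dppa3* was not called, at 5.26, 3.17 and 4.78 CPM in Control and 6.82, 5.54 and 6.09 in KD-1 (log2 fold change 0.49, SE 0.19), and was named after its value was seen. In bulk libraries the cells that carry these markers are not known, so the count is not read as a separate germ cell signal. The list summed to 48.1 to 48.5 CPM in Control and 114 to 115 in KD-1, and the 10 genes stood at 48.1, 67.9 and 68.5 CPM per 1000 CPM of these markers in Control and at 768, 772 and 784 in KD-1. Nothing is read from the rise of this ratio either, because of how the 10 were chosen.

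Markers of 2-cell-like cells, a rare state of embryonic stem cell cultures, were near 0 in Control, with a sum of 0 to 0.193 CPM, and summed to 3.96 to 4.91 CPM in KD-1. *Zscan4f* and *Zscan4c*, without a count in Control, were at least 26.7-fold and 9.98-fold higher than a floor of 3 counts per library, and *Zscan4d* had 4 counts, all in the lowest Control library. These genes are near-identical copies, so their single values are uncertain, and the defining factor *Duxf3* had 0, 0 and 2 counts in Control and 4, 4 and 4 in KD-1. Fibroblast markers, listed because embryonic stem cells can be grown on feeder fibroblasts, went from a sum of 26.5 to 32.5 CPM in Control, nearly all of it *Fap*, to 0.461 to 0.644 in KD-1, most of it *Thy1*. Of the 2 that were tested, *Fap* was called lower, from 30.5, 25.2 and 28.2 CPM to 0.0477, 0.023 and 0.0461, and *Thy1* was not called, at 0.145, 0 and 0.253 CPM in Control and 0.525, 0.506 and 0.322 in KD-1 (log2 fold change 1.59, SE 0.72, edgeR adjusted p = 0.083). *Postn*, *Dcn* and *Lum* did not pass the filter and averaged 0.684, 0.406 and 0.273 CPM in Control. In KD-1 *Dcn* averaged 0.0773 CPM, and *Postn* and *Lum* were at 0 in every library. The part of these cell states in the levels of the germline genes was not tested.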

How the data were processed

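Bulk RNA-seq libraries of day 5 gastruloids (3 Control, 3 *T-UCstem1* KD-1) were analysed. The authors sequenced paired ends, estimated transcript abundance with Salmon 1.1 on a Gencode transcriptome and deposited estimated counts per gene. The species series and build of that release, the summing to genes and the use of strand are not given in the sources used here. The deposited values were rounded to whole numbers where needed. Columns were assigned to groups by name, but not to single samples.

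Symbols and GRCm39 coordinates were taken from GENCODE vM39, which held 35222 of 35565 identifiers, and promoter windows from RefSeq (GRCm38.p6). Genes were kept by edgeR's default filter (10 counts in the median library, or 0.239 CPM, in at least 3 libraries), scaled by TMM and tested with edgeR 4.0.16 (R 4.3.3, robust quasi-likelihood F test, Benjamini-Hochberg over all 15110 genes; SE from fold change and F). A call needed an adjusted p under 0.05 and a 1.5-fold change either way. DESeq2 1.42.0, the tool of the study, served as an alternative. The fit was tested on simulated data. Intervals are exact 95% Poisson, or conditional binomial for ratios, and like the floor of 3 counts cover counting error only. Totals of 20982249 to 85561026 counts set the precision.

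The members and lists were chosen with earlier results of these data known. Named by rule were all 10 members, the 3 called genes with the largest change in each germline and marker list with 10 or more counts in 3 libraries, and 12 silencing genes chosen by name. Alternatives covered tool, scaling, filter, fold threshold and leaving out each library.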

Additional observations from a re-analysis of the deposited data

How the results depend on the processing

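No gene named by the rule changed direction in the alternatives in which it was tested. The genes named after their values were seen were not followed under the alternatives. The number of other germline genes called higher (30) was 28 to 32 and the number called lower (4) was 4 to 6 with the DESeq2 Wald test, with other scaling, without a filter, with either other fold threshold and with each library left out. With at least 10 counts required in every library 34 of these genes were left and 16 were called higher, and of the 10 members *Stk31* alone was left, with a log2 fold change of 3.54. Of the silencing genes, 13 were called in the main fit. The number was 12 or 13 with the other tool, scaling or filters and with each library left out. With an absolute log2 fold change over 1 as the threshold, 4 silencing genes were called in place of 13 and 3274 of all genes in place of 5704. *Dnmt3a*, *Dnmt3b*, *Mga* and *Pcgf6* were then no longer called. With no fold threshold 9597 genes were called, among them *Dnmt1*, *Uhrf1*, *E2f6* and *L3mbtl2*. The adjusted p of *Dnmt1*, 0.021, was 0.07 with library totals, 0.052 to 0.086 without any one library other than the middle Control library, and 4.6e-05 without that one.

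The median log2 fold change of the members (4.59) ranged from 4.26 without the lowest Control library to 5.55 without the highest. Members with few Control counts moved most with a single library. Without the lowest, *Dazl* was 11.73 and *Slc25a31* 9.62, without the highest *Sohlh2* was 13.14, *Mael* 6.14, *Ddx4* 5.59, *Dazl* 7.67 and *Slc25a31* 5.55, and without the middle *Sohlh2* was 10.63, *Sycp3* 4.81 and *Taf7l* 4.52. Where the library left out held every Control count of a gene, such a value depends on the prior count and is no bound. Depth limits *Tex101* most, at 0 to 2 counts per library.

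No paired analysis was possible because the columns of the count table carry no replicate numbers that correspond to those of the labels.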
